A study of Drosophila melanogaster with 12 samples.

Results

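The transcripts described here were near the array background before hormone and well above it after 48 h of 20-hydroxyecdysone (20HE). There were 41 of them among 16637 transcripts measured, or 0.246%. They were chosen by measured values: both 0 h groups had to lie less than 1.5-fold above the random-sequence control of the array, and both 48 h groups more than 4-fold above it (2 on the log2 scale). The control averaged an intensity of 418 over 12 arrays, so the limits lay at intensities of 626 and 1671. Below the lower limit a transcript is called off and above the upper limit on. Off means only that the mean signal lay below that limit. No test against background was made, and a low level of RNA could lie there too. Because the rule used the 0 h and 48 h arrays, the rise from 0 to 48 h is given as a description, with no test. The members' 3 h values took no part in the choice, and the 3 h arrays entered it only through the random control that set the limits.

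The cells were Kc, a Drosophila melanogaster line started from embryos, grown in serum-free medium. The 6 groups crossed the RNAi target, either CP190 or, as the control, beta-galactosidase, with the length of 20HE treatment, which was 0, 3 or 48 h. Each group had 2 biological replicates on arrays of their own, and the labels do not say whether these came from separate cultures, so p-values may measure technical spread. Every cell had received some RNAi, and no group without it was used here. The extraction protocol also mentions Mbn2 cells, but all titles name Kc. The titles were followed.

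20HE is the main moulting hormone of insects. It binds a receptor made of the nuclear receptors EcR and Usp, which acts directly on a small set of early genes, many of them transcription factors, and those in turn switch on late genes. Kc cells have long been used to study this cascade, since the hormone stops their division and changes their shape. CP190 is a zinc finger protein that several insulator DNA-binding proteins recruit to chromatin. Insulators are elements that can block contact between enhancers and promoters.

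The table carries FlyBase transcript identifiers without gene names. A RefSeq gene table (Release 6 assembly) listed 44 of the 16637 identifiers, and 0 of the 41 members were among them, so members are given by identifier and no role is assigned to any. Of 26 hormone pathway genes looked up, with Cp190 itself among them, 0 were found, and likewise 0 of 29 cell type markers. The depletion of CP190 RNA and the identity of the cells were therefore not analysed here.

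The median intensity of an array was 1136 to 1227, and its random control read 413 to 425. Replicate arrays correlated across transcripts by 0.994 to 0.997. The brightest transcript of an array lay between 61018 and 65523, above every member. Arrays read pooled RNA, so fewer cells making a transcript and less RNA per cell cannot be told apart. Probes differ in brightness, so an order of intensities among transcripts is an order of signal, not of RNA amount.

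Before hormone the members lay between intensities of 409 and 616 in control RNAi cells, with a median of 511. In CP190 RNAi cells they lay between 387 and 617, with a median of 491. After 48 h they ranged from 1777 to 34338 in control RNAi cells (median 3842) and from 1758 to 34321 in CP190 RNAi cells (median 3412). These are geometric means of the replicates. At 0 h the median member lay 0.29 and 0.23 log2 units above the random control, in control and CP190 RNAi cells. Over all transcripts off in both 0 h groups the medians were 0.12 and 0.13. The members' log2 change from 0 to 48 h ran from 1.58 to 6.02 in control RNAi cells (median 2.78). In CP190 RNAi cells it ran from 1.60 to 6.12 (median 2.86). Over all transcripts the median change was -0.037 and -0.035. Background adds to the signal at 0 h, which makes a measured change smaller, while choosing members for low 0 h and high 48 h values makes it larger. In both arms, all 41 members had both 48 h arrays above every 0 h and 3 h array of the arm. The mean 48 h level over both arms lay 2 to 3 log2 units above the random control for 17 members, 3 to 4 for 15, 4 to 5 for 6 and over 5 for 3.

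**Figure D1:**
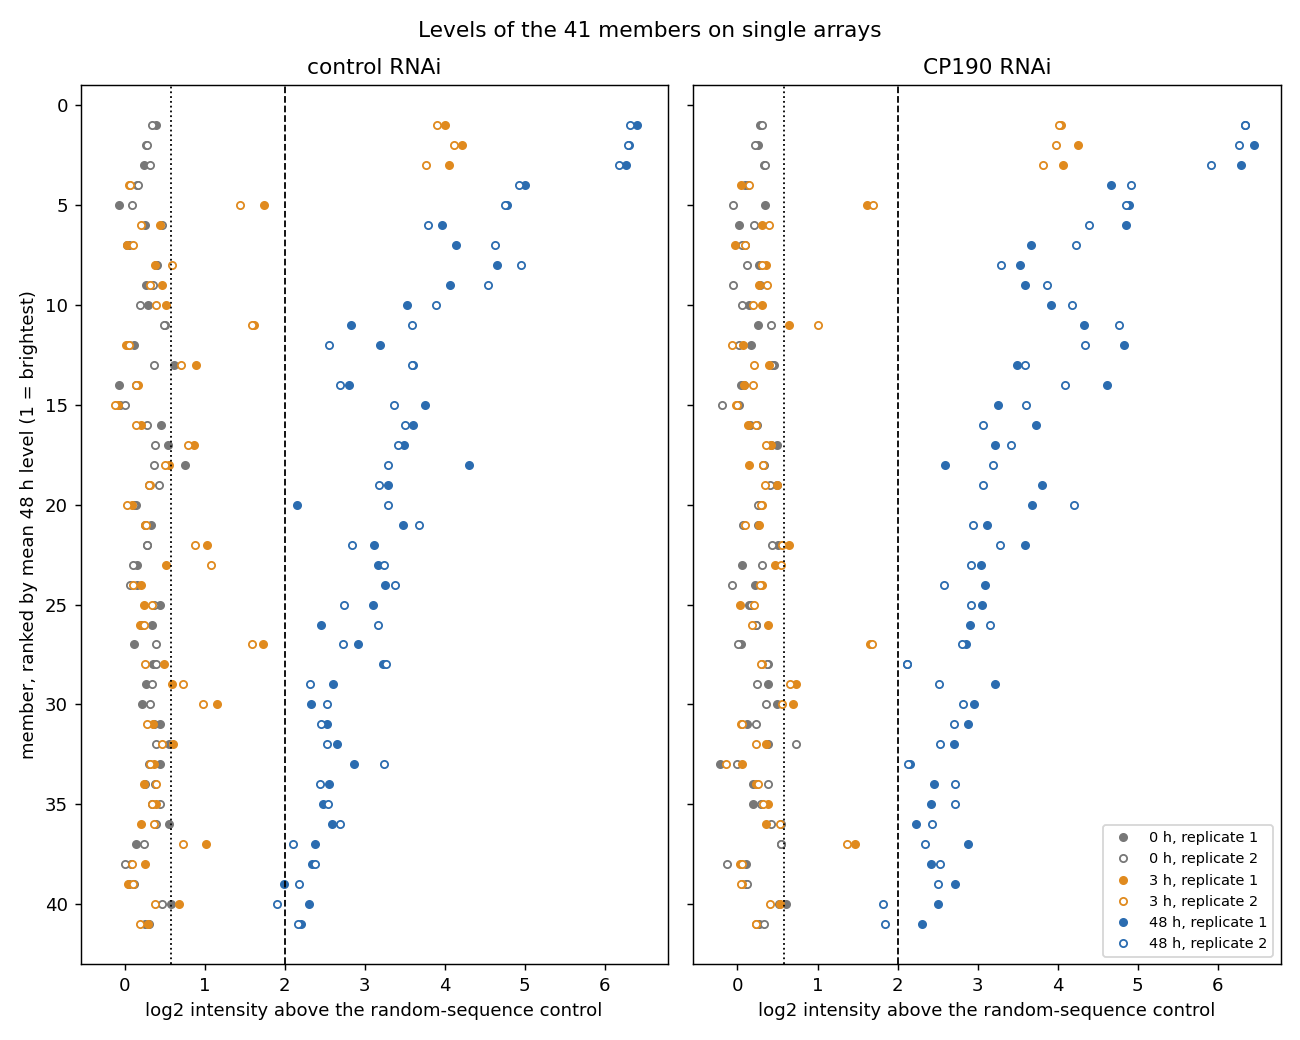
Log2 intensity above the random-sequence control on each array for the 41 members, 1 row per member, ranked by mean 48 h level, in control RNAi (left) and CP190 RNAi cells (right). Filled and open circles are replicates 1 and 2, the dotted line is the limit for off and the dashed line the limit for on. The 3 brightest members are the only rows whose 3 h circles lie beyond the dashed line.

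Just inside the 0 h limit stood FBtr0087315, at 0.53 and 0.56 log2 units above the random control in control and CP190 RNAi cells. Just outside it was FBtr0110861, at 0.61 and 0.44, which reached 4.14 and 3.09 at 48 h. Just inside the 48 h limit stood FBtr0076433, at 2.19 and 2.07, and just outside it FBtr0076662, at 1.87 and 2.62. FBtr0087315 and FBtr0076433 were also the 2 members with the lowest mean 48 h level. Single arrays crossed the limits for some members: 37 had all 4 of their 0 h arrays below the off limit, and 38 had all 4 of their 48 h arrays above the on limit.

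The 2 brightest members at 48 h were FBtr0088367 and FBtr0088368, and the third was FBtr0088366. This last identifier adjoins the others in number and was added after the values were seen. FBtr0088368 read 502 and 508 (replicates 1 and 2) at 0 h in control RNAi cells, 7768 and 7253 at 3 h, and 32896 and 32802 at 48 h. With CP190 RNAi it read 499.5 and 486, then 7946 and 6614, then 36558 and 32220.3. Each time lay clear of the others, and the replicates of the arms were close at every time. From 0 to 48 h its fitted change was 65.0-fold in control and 69.6-fold in CP190 RNAi cells.

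FBtr0088367 followed the same course, with means in control RNAi cells of 539 ± 12.3 before hormone, 6499 ± 320 at 3 h and 34356 ± 1566 at 48 h (SD, n = 2). Its means in CP190 RNAi cells were 513 ± 5.65, 6824 ± 74.4 and 33801 ± 11.6. FBtr0088366 read 493 and 520.1, then 6904 and 5705, then 32239 and 30157 in control RNAi cells. With CP190 RNAi it ended at 32649.9 and 25285, the widest gap between replicates among these 3. Between the arms the 3 differed at 48 h by -0.02 ± 0.076, 0.06 ± 0.099 and -0.12 ± 0.13 on the log2 scale (SE; FBtr0088367, FBtr0088368 and FBtr0088366), with limma adjusted p of 0.936, 0.847 and 0.769. At 3 h the differences were 0.07, -0.05 and 0.03.

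At 3 h most members had not yet passed the off limit. In both arms alike, 28 of the 41 were still off at 3 h, and 3 were on, namely the brightest 3 just described. The other 10 lay between the limits: 7 in both arms, and 3 in control RNAi cells while off in CP190 RNAi cells. The median member stood at 539 in control and 515 in CP190 RNAi cells at 3 h, close to its 0 h level. The median of the members' log2 changes from 0 to 3 h was 0.02 and 0.05, beside -0.003 and -0.006 over all transcripts.

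Members off at 3 h and members then between the limits ended in the same range of brightness. The 28 off at 3 h had mean 48 h levels of 2.13 to 4.88 log2 units above the random control (median 3.19). The 10 between the limits had 2.43 to 4.82 (median 3.15). Of the 10 brightest members at 48 h, 6 were off at 3 h in both arms. The clearest of them, picked after its values were seen, was FBtr0076945. It read 463 and 469 at 0 h, 433 and 439 at 3 h, and 13380.1 and 12656 at 48 h in control RNAi cells. With CP190 RNAi it read 447 and 456, 431 and 459.5, then 10587 and 12661. All its 0 h and 3 h arrays lay within 1.5-fold of the random control, and its 48 h arrays of the arms overlapped.

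The members with the lowest 3 h level were FBtr0076946, at 394 and 385 in control and 411 and 418 in CP190 RNAi cells, and FBtr0080592, at 423 and 434 against 437 and 399. In control RNAi cells these readings were no higher than at 0 h, where the first had 399 and 418 and the second 454 and 435. In CP190 RNAi cells the first had 421 and 364 at 0 h and the second 468 and 421. Their log2 changes from 0 to 3 h there were 0.08 and -0.09. By 48 h FBtr0076946 had reached 4961 ± 930 and 4533 ± 793 (SD, n = 2) in control and CP190 RNAi cells.

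Among the 10 between the limits, FBtr0078306 and FBtr0112799 stood highest at 3 h, and they too were singled out after their values were seen. FBtr0078306 read 399 and 444 before hormone in control RNAi cells, 1391 and 1132 at 3 h, then 11408 and 11249. With CP190 RNAi it went from 528 and 403 to 1280.1 and 1347 and then 12444 and 12032. FBtr0112799 went from 451 and 547 to 1378 and 1261 and then 3144 and 2763 in control RNAi cells. Under CP190 RNAi it read 430.4 and 419, then 1315 and 1338, then 3015 and 2912. So both were clear of their 0 h arrays by 3 h in each arm, while the first rose much further by 48 h. Their differences between arms at 48 h were 0.11 ± 0.13 and 0.01 ± 0.10 on the log2 scale.

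Fitted over all 16637 transcripts with limma, 8 of 41 members passed an adjusted p of 0.05 as higher at 3 h than at 0 h in control RNAi cells, where 0.956% of all transcripts did. In CP190 RNAi cells 6 of 41 did, beside 0.613% of all. Because the rule demanded low 0 h values, which favours a rise, nothing is read from these counts. They shared 5 members: the brightest 3, FBtr0078306 and FBtr0112799. Past the threshold in control RNAi cells but not in CP190 RNAi cells were FBtr0086699, FBtr0070393 and FBtr0087285, and the reverse held for FBtr0114581. Whether the 3 h response itself differed between arms was not tested for the members, as that uses the 0 h arrays.

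**Figure D2:**
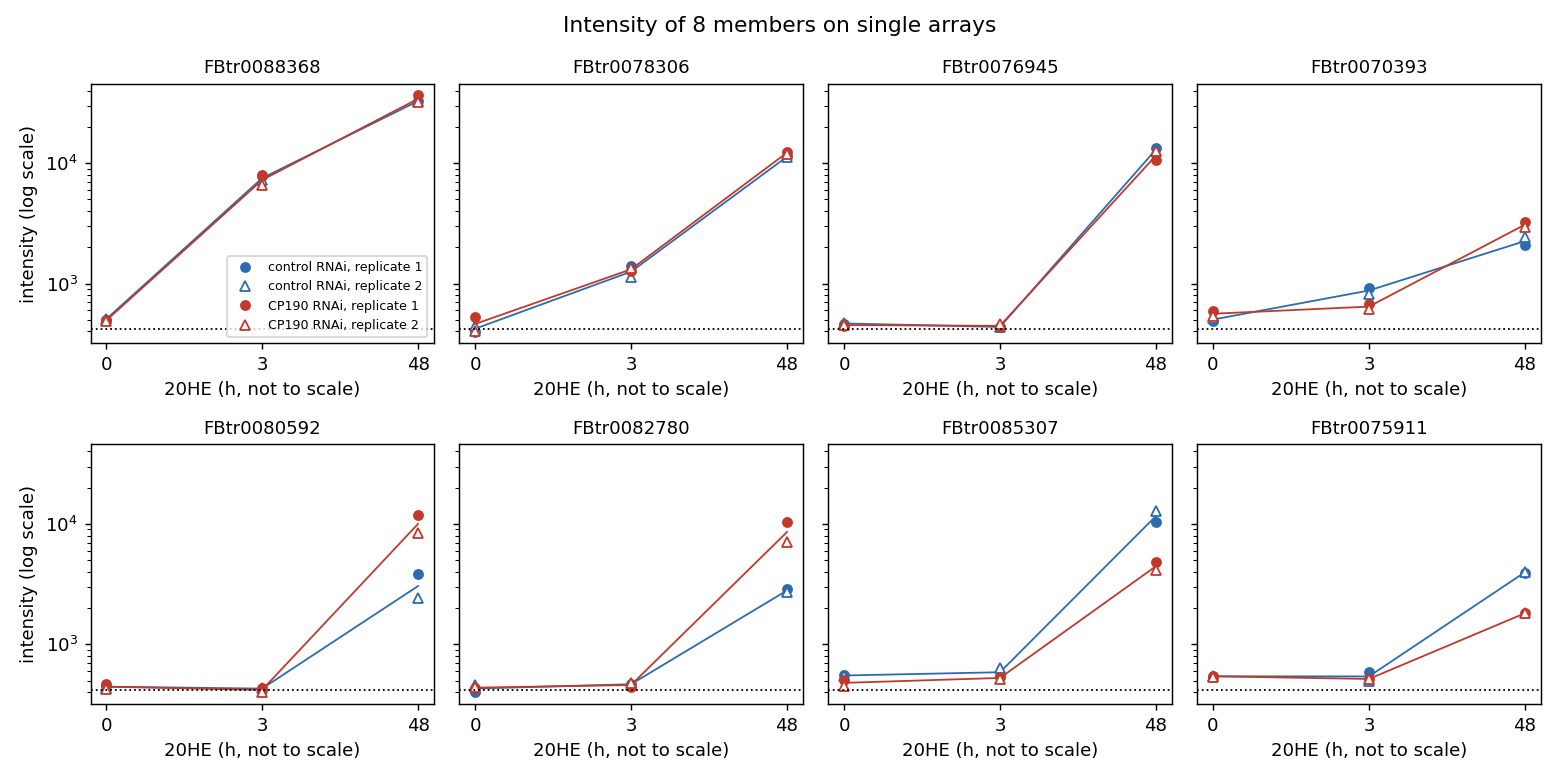
Intensity on each array (log axis) at 0, 3 and 48 h for 8 members, in control RNAi (blue) and CP190 RNAi cells (red). Circles and triangles are replicates 1 and 2, lines join geometric means, and the dotted line is the random control. The upper row shows a member on at 3 h, an intermediate, a late one and one whose arms cross, and the lower row the 2 largest rises and falls after CP190 RNAi at 48 h.

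The comparison of CP190 RNAi with control RNAi asks whether these transcripts differ with the RNAi target. How far CP190 itself was lost was not analysed. At 3 h, 3 of 41 members (7.32%) passed an adjusted p of 0.05. The rule did not use the members' 3 h values, but the fitted spread used all 12 arrays, with the 0 h and 48 h arrays among them. These adjusted p-values are thus not fully independent of the choice. Of all transcripts 6.21% passed, of the 7245 on in both 48 h groups 8.39%, and of the 6180 off in both 0 h groups 0.583%. Both of these sets hold the members. All 3 members that passed were lower in CP190 RNAi cells. Over all transcripts 4.33% were higher and 1.88% lower. With the replicate number as a block in the model, 8 members passed, 1 higher and 7 lower. Of all transcripts 12.6% then passed (7.35% higher and 5.22% lower), and of those on in both 48 h groups 18%. The 1 that was higher, named for this reason, was FBtr0114581, at 848 and 695 in control and 1154 and 1079.8 in CP190 RNAi cells (0.54 ± 0.16, limma adjusted p = 0.00893 with the block and 0.0733 without). The median difference of the members was -0.036 on the log2 scale, and that of all transcripts -0.019.

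The 3 lower members were FBtr0083368, FBtr0070393 and FBtr0083367, the last of which the naming rule did not pick. FBtr0083368 read 774 and 682 in control RNAi cells at 3 h and 549 and 484 in CP190 RNAi cells, so the arms did not overlap (-0.50 ± 0.11 on the log2 scale, limma adjusted p = 0.0159). FBtr0083367 read 761 and 724 against 558 and 535 (-0.44 ± 0.093, limma adjusted p = 0.0149). FBtr0070393 read 927 and 826 against 675 and 613 (-0.44 ± 0.10, limma adjusted p = 0.0265). In control RNAi cells each of these readings was above the off limit, and in CP190 RNAi cells each was near it or below, where background can shrink a difference.

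These calls depended on single arrays. Leaving out any of the 3 h arrays ended the call of FBtr0070393 (adjusted p of 0.0528 to 0.164) and of FBtr0083367 (0.0599 to 0.0961). Without CP190 3 h replicate 2 or control 3 h replicate 1, FBtr0083368 had an adjusted p of 0.125 or 0.112. Without control 3 h replicate 1 or CP190 3 h replicate 2, each of the 3 lost its call. With single arrays left out, the log2 difference ran from -0.59 to -0.40 for FBtr0083368 and from -0.53 to -0.36 for FBtr0070393. For FBtr0083367 it ran from -0.48 to -0.41.

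After 48 h of hormone, members lay on both sides of equality. Of the 41 members, 12 (29.3%) passed the threshold between CP190 and control RNAi, beside 5.19% of all transcripts. Higher in CP190 RNAi cells were 8 members (19.5%), beside 3.17% of all, and lower were 4 (9.76%), beside 2.02% of all. These counts turned on single arrays: without CP190 48 h replicate 1 there were 4 higher and 6 lower, and without control 48 h replicate 1 there were 5 of each. With the replicate block 16 passed, 9 higher and 7 lower, beside 9.94% of all transcripts. Among the 7245 transcripts on in both 48 h groups, which hold the members, 5.70% passed. The median size of the difference was 0.311 on the log2 scale for the members, 0.122 for the transcripts on in both 48 h groups and 0.0949 for all. The direction was mixed, with a median of 0.056 for the members and -0.007 for all. Replicates of the members differed by a median of 0.178 in control and 0.258 in CP190 RNAi cells at 48 h. At 0 h and 3 h these medians were 0.086 to 0.101. The fit pools the spread of all 6 groups. SEs and adjusted p-values of members may therefore be too small in comparisons that use the 48 h arrays. With only the arrays compared in the fit, 10 passed, 6 higher and 4 lower, beside 5.58% of all transcripts. The rule set the same lower limit for both 48 h groups and used no difference between them. Yet it used these arrays, and it kept out any transcript that 1 arm held under the limit, so the members' share is given as a description and their adjusted p-values are not independent of the choice.

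**Figure D3:**
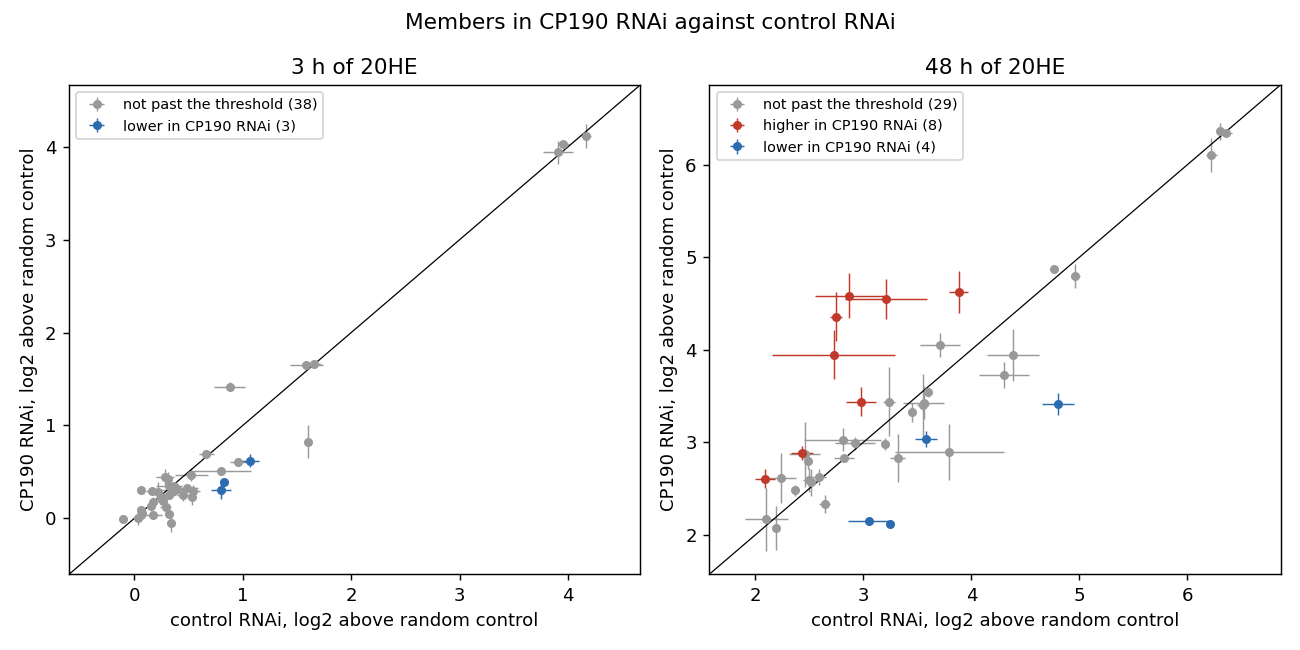
Group means of the 41 members in CP190 RNAi (vertical) against control RNAi cells (horizontal), in log2 units above the random control, at 3 h (left) and 48 h (right). Bars reach from 1 replicate to the other, the line marks equal levels, and colours mark members past the adjusted p threshold. At 3 h 3 points are coloured and at 48 h 12, on both sides of the line, while the 3 brightest lie near it.

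The largest rise in CP190 RNAi cells was that of FBtr0080592. At 48 h it read 3804 and 2443 in control and 11855 and 8463 in CP190 RNAi cells, a log2 difference of 1.72 ± 0.19 (3.29-fold, limma adjusted p = 1.79e-04). All CP190 arrays lay above all control arrays, and the control replicates were wider apart than those of the next member. FBtr0082780 read 2907 and 2700.4 against 10289 and 7133, a difference of 1.61 ± 0.14 (3.06-fold, limma adjusted p = 3.58e-05). Both had been within 1.5-fold of the random control on every 0 h and 3 h array, and at 3 h the arms differed by -0.04 and -0.02 on the log2 scale. Both calls held without any single array.

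A further 2 members, which the naming rule did not pick, were at least 2-fold higher. FBtr0086699 read 2961 and 5036 in control and 8406 and 11366 in CP190 RNAi cells (1.34 ± 0.21, limma adjusted p = 0.00282). FBtr0080030 read 1863 and 4088 against 5369 and 7717 (1.22 ± 0.27, limma adjusted p = 0.0216). The control replicates of the second were over 2-fold apart. Its call ended with only the arrays compared in the fit (adjusted p = 0.0782), without CP190 48 h replicate 2 (0.162) and without control 48 h replicate 1 (0.0802, with the log2 difference at 0.65). The remaining 4 that were higher differed by 0.45 to 0.74, and each of these calls ended without 1 or more single arrays.

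On the other side, FBtr0085307 had the largest fall. It read 10477 and 12926 at 48 h in control and 4833 and 4104 in CP190 RNAi cells, a log2 difference of -1.39 ± 0.12 (2.61-fold lower, limma adjusted p = 3.16e-05). FBtr0075911 read 3924 and 4018 against 1812 and 1810.0, a difference of -1.13 ± 0.086 (2.19-fold lower, limma adjusted p = 1.11e-05), and its replicates were almost equal. The other 2 lower members were outside the naming rule. FBtr0112910 read 3033 and 3934 against 1859 and 1835 (-0.90 ± 0.12, limma adjusted p = 0.00102). FBtr0079464 read 4638 and 5353 against 3622 and 3214 (-0.55 ± 0.11, limma adjusted p = 0.00995), and its call ended without CP190 48 h replicate 2 (0.0924) or control 48 h replicate 2 (0.122). All 4 were off at 3 h in both arms, as were 5 of the 8 that were higher. The 29 members not past the threshold differed between arms by -0.90 to 0.41 on the log2 scale.

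By a limma test of the difference, 8 of 41 members had a CP190 effect at 48 h other than at 3 h, beside 1.97% of all transcripts. With the replicate block 10 members passed, beside 4.57% of all. This test too uses the 48 h arrays, so its adjusted p-values are not independent of the choice and are given as a description. For 5 of the 8, which were near background in both arms at 3 h, it mostly restates the 48 h difference. The effect was higher at 48 h in 6 of the 8, beside 0.811% of all, and lower in 2, beside 1.15%. In 4 of the 6, chosen after their values were seen, CP190 RNAi cells read below control at 3 h and above it at 48 h, with no overlap of the replicates at either time. Over all 41 members, 6 (14.6%) had that order, beside 3.22% of all transcripts, and 1 had the reverse, beside 2.75%.

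FBtr0070393, lower at 3 h as given above, read 2101 and 2419 at 48 h in control and 3249 and 2933 in CP190 RNAi cells (0.45 ± 0.10, limma adjusted p = 0.0259). It was the only member past the threshold at both times, and the 48 h call ended without CP190 48 h replicate 1 (0.215) or control 48 h replicate 1 (0.223). Its change of effect was 0.90 ± 0.15 (limma adjusted p = 0.00796) and held without any single array.

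FBtr0086699 had the largest change of effect. It read 1284 and 1253 at 3 h in control and 654 and 839 in CP190 RNAi cells, with no overlap (-0.78 ± 0.21, limma adjusted p = 0.0564, and 0.00318 with the replicate block). At 48 h the order was turned, as given above, and the change of effect was 2.12 ± 0.30 (limma adjusted p = 0.00331).

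The other two were less firm. FBtr0087285 read 851 and 768 against 655 and 616 at 3 h (-0.35 ± 0.12, limma adjusted p = 0.127, and 0.017 with the replicate block). At 48 h it read 3626 and 2985 against 5036 and 4069 (0.46 ± 0.12, limma adjusted p = 0.0461). That call was lost after centring (0.0609), with only the arrays compared (0.102), and in 10 of the 12 settings that leave out 1 array, up to 0.393 without control 48 h replicate 2. FBtr0080971 read 532 and 508 against 431 and 433 at 3 h, all within the off limit, and 2400.3 and 2279 against 3078 and 2736 at 48 h. Neither of its differences between arms passed at a single time (limma adjusted p of 0.107 and 0.0652, and 0.0478 and 0.0266 with the replicate block). Their changes of effect were 0.81 ± 0.17 and 0.58 ± 0.12, with limma adjusted p of 0.0309 and 0.0339, and each lost its call without some single arrays, up to 0.137 and 0.146.

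Some members carry neighbouring identifiers. There were 6 runs of consecutive numbers, 1 of 3 members and 5 of 2, holding 13 of the 41. The share of all transcripts in such runs was not counted, so nothing about the members is read from this number. A further 50 transcripts on the array adjoined members in number but were no members. Of these, 29 were off and 9 on in both 0 h groups. The table does not say whether transcripts with consecutive numbers belong to 1 gene or share probes, so they may not be independent. In 5 of the 6 runs the 48 h difference between arms varied by 0.037 to 0.28 on the log2 scale from member to member. The exception was the pair of FBtr0080591 and FBtr0080592, with 2.15. FBtr0080591 read 7361 and 10321 at 48 h in control and 5294 and 7816 in CP190 RNAi cells, which overlap (-0.44 ± 0.17, limma adjusted p = 0.229), where FBtr0080592 rose as given above. Without CP190 48 h replicate 2 the adjusted p of FBtr0080591 was 0.0362. The pair of FBtr0083367 and FBtr0083368 moved alike, both lower at 3 h and differing between arms at 48 h by -0.13 ± 0.093 and -0.06 ± 0.11. The pair of FBtr0076945 and FBtr0076946 was off at 3 h and had -0.17 ± 0.092 and -0.13 ± 0.14 at 48 h.

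**Figure D4:**
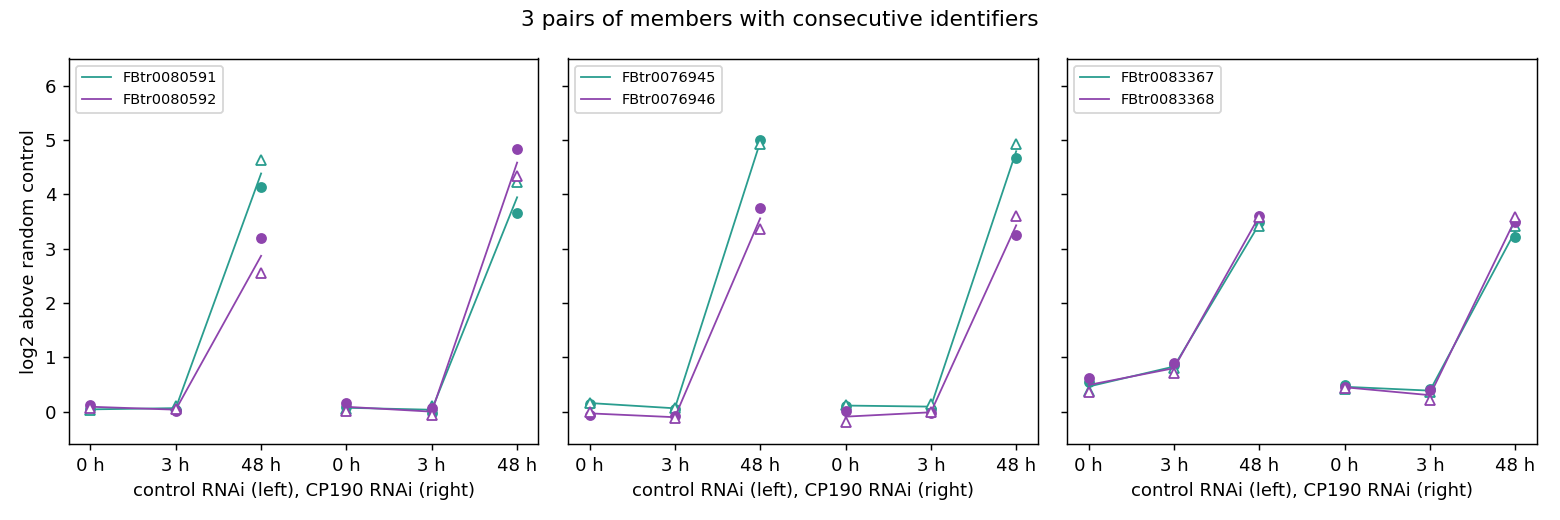
Log2 intensity above the random control for 3 pairs of members with consecutive identifiers, at 0, 3 and 48 h in control RNAi (left of each panel) and CP190 RNAi cells (right). Circles and triangles are replicates 1 and 2 and lines join group means. In the first panel the order of the pair at 48 h turns between the arms, while in the other 2 it holds or the members coincide. CP190 minus control RNAi at 48 h was -0.44 for FBtr0080591 and 1.72 for FBtr0080592.

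Of the 6180 transcripts that were off in both 0 h groups, the members are 0.663%. A further 21 came on at 48 h in control RNAi cells alone and 23 in CP190 RNAi cells alone. The members are thus 66.1% of the 62 that came on in control RNAi cells and 64.1% of the 64 that came on in CP190 RNAi cells. Most transcripts that met the limit in 1 arm were raised in the other too: 19 of the 21 and 21 of the 23 lay above the off limit there. Their median level in the other arm was 1.24 and 1.42 log2 units above the random control, against 2.37 and 2.33 in the arm where they were on. These values follow from the limits and are a description.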

How the data were processed

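Per the labels' protocols, Cy3-labelled cDNA of 12 samples was read on NimbleGen arrays with 1 colour. The deposited table holds linear intensity values, 1 per transcript and array, which the submitters' processing notes credit to RMA; neither its version nor the build or annotation is given in the sources used here. RMA equalises the arrays, so a shift of all transcripts would not show. Here log2 was taken with no filter or pseudocount. In R 4.3.3, limma 3.58.1 fitted a mean per group and 1 spread per transcript over all groups (6 residual degrees of freedom). Two-sided p-values were adjusted by Benjamini-Hochberg over 16637 transcripts. The fit was tested on simulated data with noise independent between arrays, which lack the pairing of replicates given below, so nothing about the calls is read from that test. The members and lists were chosen with earlier results of these data known.

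The number of arrays limits the precision. Replicate numbers are shared by all groups, and the differences between replicates correlated by 0.147 to 0.608 over the 15 pairs of groups, so the numbers pair the samples; the main fit has no block. The naming rule took the 2 members with the highest and lowest 48 h and 3 h levels, the 2 largest rises and falls between arms with replicates that do not overlap, and the transcripts beside each limit; others are marked. Alternatives were other limits, centring, quantile normalisation, a trended robust prior, only the arrays compared, dim transcripts left out, a 1.5-fold minimum, the replicate block, and leaving out each array. No probe values or sequences were used.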

Additional observations from a re-analysis of the deposited data

Results flagged for a closer look

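For 8 members the CP190 effect differed between 48 h and 3 h by a limma test of that difference, adjusted over all 16637 transcripts. Higher at 48 h (48 h minus 3 h, log2) were FBtr0086699 by 2.12 ± 0.30, FBtr0080592 by 1.75 ± 0.26, FBtr0082780 by 1.63 ± 0.20, FBtr0070393 by 0.90 ± 0.15, FBtr0087285 by 0.81 ± 0.17 and FBtr0080971 by 0.58 ± 0.12. Their adjusted p ran from 0.00136 for FBtr0082780 to 0.0339 for FBtr0080971. Lower were FBtr0085307 at -1.23 ± 0.17 (adjusted p = 0.00261) and FBtr0075911 at -1.06 ± 0.12 (adjusted p = 8.98e-04). FBtr0080592, FBtr0082780, FBtr0085307, FBtr0075911 and FBtr0080971 were near background at 3 h, so there the test mostly restates the 48 h difference. The rule that chose the members used the 48 h arrays, so these adjusted p-values are not independent of the choice and are given as a description. Except for FBtr0087285 and FBtr0080971, the test held without any single array, with adjusted p of at most 0.0407. Groups of 2 allow no test for outlying samples.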

How the results depend on the processing

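The number of members depended on the 0 h limit: 12 with that limit at 1.2-fold and 97 at 2-fold. It was 59 or 29 with the 48 h limit moved by 0.5 either way, 35 where every single array had to pass, 40 or 41 after other scaling, and 39 to 44 without single arrays. The 3 members on at 3 h became 5 with the on limit at 1.5 log2 units. The 3 members past the threshold between arms at 3 h became 5 with only the arrays compared (5.21% of all transcripts). They became 8 with the replicate block (12.6% of all) and 0 with a 1.5-fold minimum (3.25% of all). Each of the 3 calls was lost without some single arrays, as given above. Over the other alternatives there were 4 (6.01% to 8.99% of all). The 12 at 48 h ran from 10 to 14 without single arrays (2.90% to 5.57% of all transcripts), were 16 with the replicate block (9.94% of all) and 8 with the 1.5-fold minimum (2.93% of all). They were 10 with only the arrays compared (5.58% of all) and 11 to 13 over the other alternatives (5.15% to 7.55% of all). Fits without single arrays aside, the 8 rises from 0 to 3 h in control RNAi cells became 7 to 11. Of all transcripts 0.535% to 2.32% then passed in either direction. The 6 rises in CP190 RNAi cells stayed at 6, beside 0.571% to 1.38% of all. No called difference between arms of a named member changed sign. Background can shrink differences of transcripts near the random control, as most members were at 3 h.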
